A study of Caenorhabditis elegans with 12 samples.

Results

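The mRNAs brought down with the FLAG-tagged Y-box protein CEY-2 were compared directly with those brought down with FLAG-tagged CEY-4, in whole young adult Caenorhabditis elegans. The comparison rests on 4 of the 12 libraries of the study, 2 FLAG immunoprecipitation (IP) libraries of CEY2 worms and 2 of CEY4 worms, chosen by their sample titles. CEY2 worms carried rrrSi233, a chromosomal insertion in which the cey-2 promoter drives FLAG(1x), the cey-2 open reading frame and the cey-2 3' UTR. CEY4 worms carried rrrSi307, in which the dpy-30 promoter drives FLAG(1x), the cey-4 open reading frame and the cey-4 3' UTR. Both insertions go on with an operon linker, PEST:GFPH2B and the tbb-2 3' UTR, and carry unc-119(+). MYC IPs of the same 2 strains served as controls (2 libraries each), and FLAG IPs of another strain, CEY1, which carries FLAG-tagged cey-1 under its own promoter, were used to estimate the spread. All worms were grown on OP50 bacteria and frozen, and RNA was taken from the beads.

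Each protein was represented by 1 line, and the promoters of the 2 transgenes differed, so an effect of the protein and an effect of the cells in which it was made cannot be told apart. CEY4 worms expressed their tagged protein from the dpy-30 promoter and not from the cey-4 promoter. Whether replicate IPs began from different worm cultures is not stated in the labels, and the p-values therefore reflect the variation among the sequenced libraries alone, which may be technical.

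Y-box proteins carry a cold-shock domain, bind mRNA in the cytoplasm and are packaged with it into ribonucleoprotein particles. In C. elegans, CEY-2 is known as a germline protein and CEY-4 is found in both germline and soma. The dpy-30 promoter is active in most tissues of the worm, and the adult hermaphrodite gonad holds large stores of maternal mRNA.

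The CEY2 FLAG libraries held 28940989 and 33529549 counts, and the CEY4 FLAG libraries 29903497 and 29481913. At this depth 1 CPM (counts scaled to a common library size) corresponded to 28.9 to 33.5 counts before scaling. The MYC libraries of the 2 strains were shallower, at 3353523 to 12802412 counts. Replicates correlated at r = 0.995 in both strains (log2 CPM across genes, which are not independent replicates), and CEY2 with CEY4 libraries at 0.946 to 0.947. Replicates differed by more than counting noise in both strains (chi-square per degree of freedom 3.22 in CEY2, 1.47 in CEY4), so each library was kept as a sample. The 10 most abundant genes took 7.19 to 7.3% of the counts in CEY2 and 10.1 to 10.2% in CEY4.

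The 2 immunoprecipitates differed widely in composition. Of 11985 genes tested, 8888 (74.2%) passed an adjusted p of 0.05 in edgeR's quasi-likelihood test, 4512 of them higher (37.6%) and 4376 lower (36.5%) with CEY2 than with CEY4. A difference of at least 2-fold (log2 fold change of at least 1 in size) was called for 3791 genes (31.6%), 1684 higher (14.1%) and 2107 lower (17.6%). Both CEY2 libraries lay above both CEY4 libraries for 5253 genes (43.8%), and below them for 5115 (42.7%). Libraries that do not overlap were thus the usual case. They were also a condition for the genes ranked by fold change or CPM, so they are given below as description only. With no spike-in or input library, every fold change is relative to the other mRNAs of the same library. The median log2 fold change over all genes was 0.005 with TMM (trimmed mean of M values) scaling and 0.163 when libraries were scaled by their totals. Total-count scaling gave 5320 genes higher and 3670 lower, and at 2-fold 2150 higher and 1746 lower, so that which direction held more 2-fold calls turned round with the scaling. Among the 196 genes with at least 1000 CPM in the higher group, 117 were lower and 64 higher with CEY2, and at least 2-fold the counts were 28 lower and 6 higher. Levels are given as TMM-scaled CPM, compared only within a gene because CPM is not corrected for gene length, and log2 fold changes are CEY2 over CEY4 with their standard error (SE).

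Each tagged protein's own mRNA was the more abundant in its own IP. The cey-2 mRNA (WBGene00000473) stood at 1795 and 1747 CPM in the CEY2 FLAG libraries, against 463 and 468 CPM in the CEY4 FLAG libraries. It was therefore 3.8-fold higher with CEY2 (log2 fold change 1.93 ± 0.03, edgeR adjusted p = 9.56e-38), and no libraries overlapped. The cey-4 mRNA (WBGene00000475) stood at 630 and 645 CPM with CEY2, against 3502 and 3462 CPM with CEY4, 5.46-fold lower with CEY2 (−2.45 ± 0.03, edgeR adjusted p = 6.79e-42). In the MYC libraries the same mRNAs were called in the opposite directions and by less, −0.41 ± 0.07 for cey-2 and 0.28 ± 0.06 for cey-4. Reads of a transgene and of its chromosomal gene cannot be told apart in these counts.

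Among the other cold-shock-domain genes, cey-1 had 380 and 378 CPM with CEY2, against 307 and 308 CPM with CEY4 (0.30 ± 0.03). Its difference in the MYC libraries was larger (1.23 ± 0.07). The germline gene cey-3 had 187 CPM in each CEY2 library, against 169 and 166 CPM with CEY4 (0.16 ± 0.04, edgeR adjusted p = 0.000585). For lin-28, the regulator of developmental timing, the levels were 31.4 and 30.6 CPM with CEY2, against 15.2 and 17.4 CPM with CEY4 (0.93 ± 0.07). All 5 genes of the group were called, 4 higher and 1 lower, beside 74.2% of all genes called. Of the genes whose parts were built into the transgenes, tbb-2 differed least (1004 and 1039 CPM with CEY2, against 917 and 931 with CEY4, 0.14 ± 0.03). The dpy-30 gene was higher with CEY2 (19.5 and 18.7 CPM, against 9.37 and 10.4 with CEY4, 0.95 ± 0.09). The unc-119 gene lay near the floor, at 1.71 and 1.28 CPM with CEY2 and 0.307 and 0.382 CPM with CEY4.

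**Figure D1:**
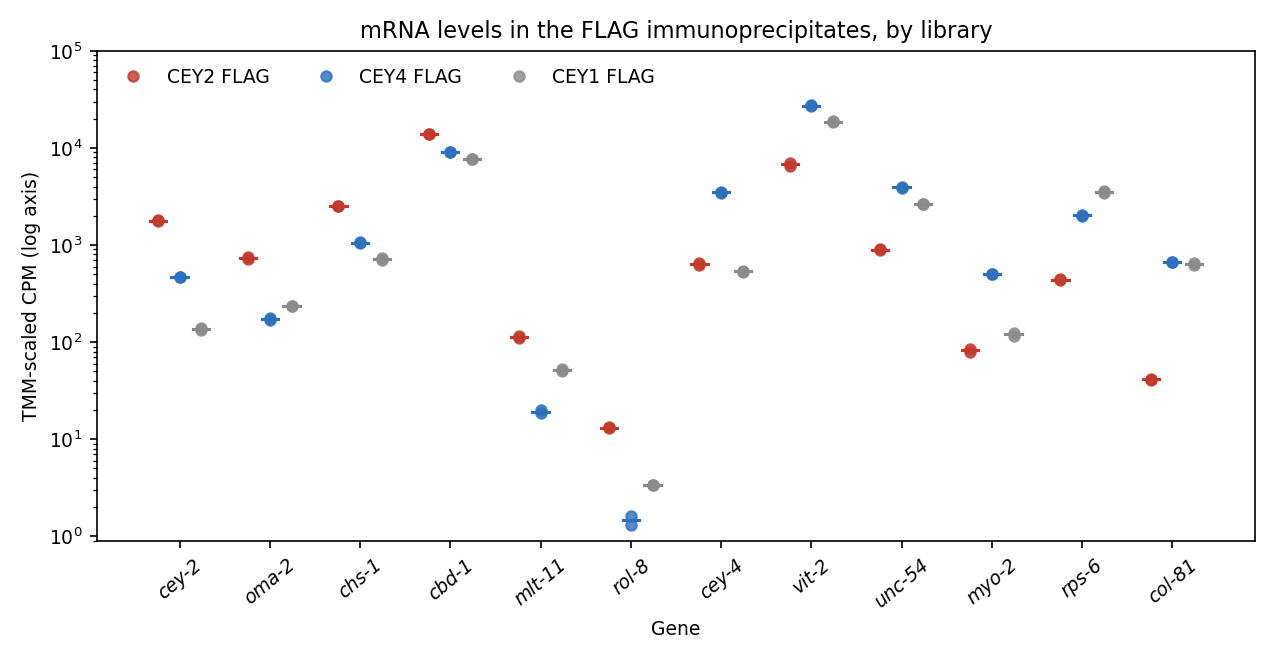
TMM-scaled CPM (vertical log axis) of 12 genes in the FLAG libraries of CEY2 (red), CEY4 (blue) and CEY1 (grey); points are libraries and dashes are means over 2 libraries. In all 12 genes the CEY2 points lie apart from the CEY4 points, higher for cey-2, oma-2, chs-1, cbd-1, mlt-11 and rol-8 and lower for cey-4, vit-2, unc-54, myo-2, rps-6 and col-81; values at 0 cannot be drawn on a log axis and none occurs here.

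Yolk protein mRNAs, the most abundant intestinal messages of the adult hermaphrodite, were several-fold lower with CEY2. The vit-6 mRNA, which encodes a yolk precursor, stood at 6914 and 6988 CPM with CEY2, against 30651 and 31105 CPM with CEY4 (4.44-fold lower, −2.15 ± 0.03, edgeR adjusted p = 2.99e-42). For vit-2 the levels were 6564 and 6945 CPM with CEY2, against 26812 and 27738 CPM with CEY4 (−2.01 ± 0.03). For vit-1 they were 840 and 875 CPM, against 4803 and 4953 CPM (−2.51 ± 0.03). The libraries of the 2 strains did not overlap for any of these genes, which was a condition of the ranking that named them. The near-identical genes vit-3, vit-4 and vit-5, whose reads may have been split between them, had log2 fold changes of −3.24, −2.28 and −1.08, all called. In MYC libraries the family divided. There vit-2 (0.22 ± 0.05), vit-6 (0.23 ± 0.05) and vit-5 (0.70) were called higher in CEY2, and vit-1 (−0.75), vit-3 (−0.91) and vit-4 (−0.70) were called lower, as in FLAG.

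Of 57 yolk and intestine genes tested (59 in the table), 40 were lower with CEY2, 31 of them at least 2-fold, and 8 were higher. Over all genes, 36.5% were lower and 37.6% higher. Their median log2 fold change was −1.06, against 0.005 over all genes. As a whole the list took 1.93 and 2% of the counts in CEY2 FLAG libraries, against 6.99 and 7.11% in CEY4 FLAG libraries. In bulk libraries such as these, fewer cells of a type contributing and less RNA per cell cannot be told apart. Nor can either be told apart here from an effect of the tagged protein or of the cells in which it was made. In the MYC libraries the order was the other way, with 4.48 and 4.52% in CEY2, against 3.9 and 3.79% in CEY4.

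Beyond the vitellogenins, the lower genes included digestive enzymes and enzymes of fat metabolism. The cathepsin B-like protease gene cpr-4 had 64.3 and 66.8 CPM with CEY2, against 361 CPM in each CEY4 library (−2.46 ± 0.04). The aspartyl protease gene asp-1 had 424 and 486 CPM with CEY2, against 1336 and 1407 CPM with CEY4 (−1.59 ± 0.04). The fatty acid desaturase gene fat-2 had 215 and 231 CPM with CEY2, against 752 and 754 CPM with CEY4 (−1.76 ± 0.03). The intestinal GATA factor gene elt-2 (−1.92 ± 0.16) and the peptide transporter gene pept-1 (−1.89 ± 0.07) were also lower. The 8 genes that were higher with CEY2 included the lysozyme genes lys-2 (1.58 ± 0.17) and lys-8 (1.06 ± 0.08), the saposin-like gene spp-1 (2.16 ± 0.19) and the P-glycoprotein gene pgp-1 (2.62 ± 0.16). All 8 were also called higher in the CEY2 MYC libraries. Of the 40 lower genes, 15 were called higher and 15 lower in MYC.

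Muscle mRNAs were lower with CEY2 as well. Of 54 body wall muscle genes tested (55 written), 43 were lower with CEY2, 29 of them at least 2-fold, and 6 were higher, with a median log2 fold change of −1.11. The shares over all genes were 36.5% lower and 37.6% higher. The body wall myosin heavy chain mRNA unc-54 stood at 904 and 886 CPM with CEY2, against 3908 and 4001 CPM with CEY4 (4.42-fold lower, −2.14 ± 0.03, edgeR adjusted p = 8.89e-41). The paramyosin mRNA unc-15 stood at 227 and 232 CPM with CEY2, against 1290 and 1331 CPM with CEY4 (−2.52 ± 0.03). The CEY4 libraries lay above the CEY2 libraries for both genes, as for 42.7% of all genes tested.

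Genes of thick filaments, thin filaments and their regulators were among the lower. The obscurin-like gene unc-89 (−2.14 ± 0.03), the titin gene ttn-1 (−1.61 ± 0.03) and the myosin gene myo-3 (−1.46 ± 0.03) were lower, as were the tropomyosin gene lev-11 (−1.88 ± 0.04), the myosin light chain gene mlc-2 (−2.76 ± 0.05) and the calponin-like gene clik-1 (−2.56 ± 0.03). The troponin T gene tnt-3 was lower still, at 40.3 and 37.1 CPM with CEY2, against 400 and 408 CPM with CEY4 (10.5-fold, −3.39 ± 0.04). The actin genes act-1 and act-4 were lower too (−2.98 and −1.66), though reads of near-identical actins may have been split between them. Exceptions were the cofilin gene unc-60 (0.92 ± 0.05), whose products also serve outside muscle, and the calponin gene cpn-1 (1.18 ± 0.07).

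In the MYC libraries muscle messages had the opposite order. The list's median in MYC was 0.42, with 33 of 54 genes higher and 9 lower in CEY2, beside 27.4% and 26% of all genes. Of the 43 genes lower in FLAG, 27 were called higher and 8 lower in MYC. The list's share of all counts was 0.648 and 0.647% in CEY2 FLAG libraries, against 1.72 and 1.74% in CEY4 FLAG libraries, and 2.24 and 2.25% in CEY2 MYC libraries, against 1.78 and 1.76% in CEY4 MYC libraries. When the FLAG difference was tested against the MYC difference over all 12 libraries, 39 of 54 muscle genes were lower and 5 higher (edgeR interaction contrast), beside 14.7% and 32.3% of all genes. That count was 43 lower under each of the 3 other scalings tried.

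The pharynx, the feeding organ with its own myosins, followed the same order. The pharyngeal myosin heavy chain mRNA myo-2 stood at 79.6 and 85.7 CPM with CEY2, against 501 and 508 CPM with CEY4 (6.1-fold lower, −2.61 ± 0.04, edgeR adjusted p = 1.53e-38), and the libraries did not overlap. The other pharyngeal myosin genes myo-1 (−2.50 ± 0.04) and myo-5 (−2.63 ± 0.05) and the troponin T gene tnt-4 (−2.37 ± 0.07) were lower by a like amount. Of 14 pharynx genes tested (18 in the table), 10 were lower and 1 was higher, the organ identity factor gene pha-4 (0.60 ± 0.12). Over all genes, 36.5% were lower and 37.6% higher. In CEY1 FLAG libraries myo-2 averaged 120 CPM and unc-54 2627 CPM, so that CEY1 lay near CEY2 for myo-2 and nearer to CEY4 for unc-54.

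**Figure D2:**
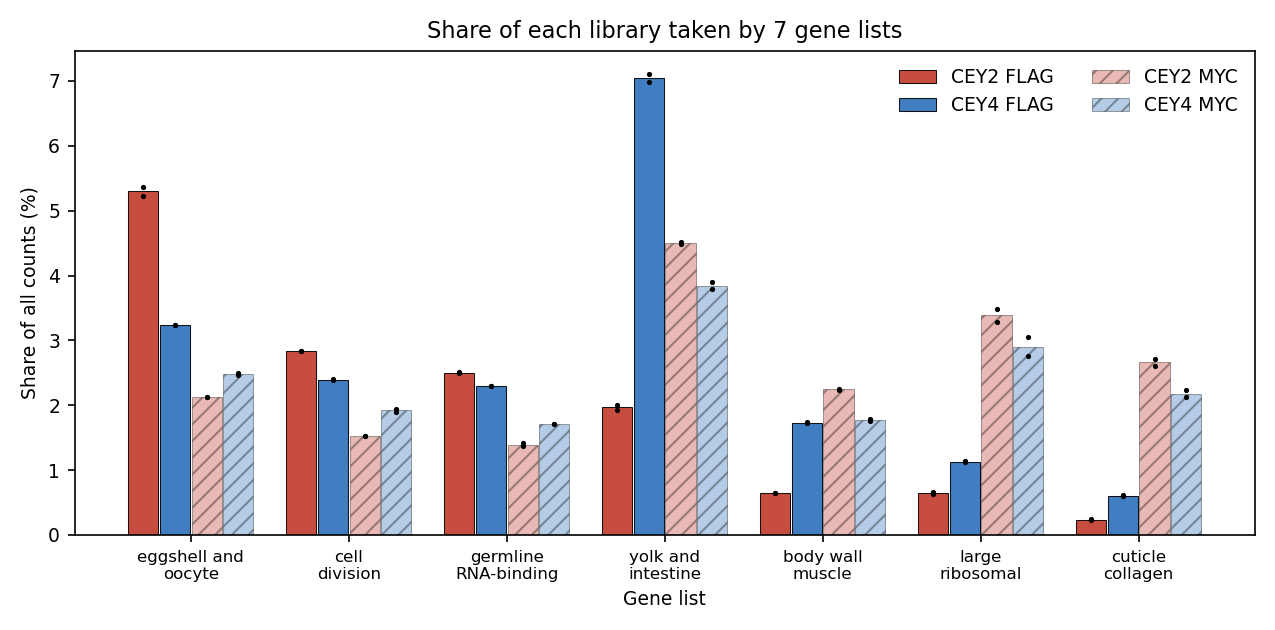
Share of all counts (percent, vertical axis) taken by 7 gene lists in CEY2 and CEY4 FLAG libraries (solid bars) and MYC libraries (hatched bars); bars are means over 2 libraries and points are libraries. Yolk and intestine genes took 1.93 and 2% in CEY2 FLAG, against 6.99 and 7.11% in CEY4 FLAG, while eggshell and oocyte genes took 5.23 and 5.37%, against 3.23 and 3.24%.

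Messages of oocyte maturation, egg activation and the eggshell were higher with CEY2. Of 41 such genes tested, 35 were higher with CEY2, 12 of them at least 2-fold, and 5 were lower, with a median log2 fold change of 0.65. The shares over all genes were 37.6% higher and 36.5% lower. They took 5.23 and 5.37% of all counts in CEY2 FLAG libraries, against 3.23 and 3.24% in CEY4 FLAG libraries. The mRNA of OMA-2, a zinc-finger protein needed for oocyte maturation, stood at 712 and 756 CPM with CEY2, against 170 and 178 CPM with CEY4 (4.22-fold higher, 2.08 ± 0.04, edgeR adjusted p = 1.05e-36). Its close relative oma-1 differed less, with 226 and 241 CPM with CEY2, against 172 and 174 CPM with CEY4 (0.43 ± 0.04). No libraries overlapped for either gene, and CEY2 lay above CEY4 in this way for 43.8% of all genes tested.

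The eggshell genes moved by different amounts. Chitin synthase mRNA chs-1 stood at 2526 and 2537 CPM with CEY2, against 1047 and 1062 CPM with CEY4 (2.4-fold higher, 1.26 ± 0.03, edgeR adjusted p = 1.26e-32). The mRNA of the chitin-binding eggshell protein CBD-1 was among the most abundant in both IPs, at 13949 and 14039 CPM with CEY2, against 9141 and 9115 CPM with CEY4 (0.62 ± 0.02). Those of the chondroitin proteoglycans CPG-1 (0.78 ± 0.03) and CPG-2 (0.60 ± 0.03) were also higher. In contrast, perm-2 (−1.92 ± 0.08) and perm-4 (−1.61 ± 0.06), needed for the permeability barrier of the eggshell, were lower, with 9.22 and 10.8 CPM of perm-2 with CEY2, against 36.4 and 39.9 CPM with CEY4.

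Egg activation and early embryo genes were mostly higher, among them egg-1 (0.87 ± 0.03) and egg-3 (1.18 ± 0.03), the kinase gene mbk-2 (1.31 ± 0.04), the RNA-binding protein gene spn-4 (1.18 ± 0.03), the Nanos-family gene nos-2 (1.76 ± 0.09) and the Notch ligand gene apx-1 (1.41 ± 0.04). The yolk receptor gene rme-2 had 2042 and 2108 CPM with CEY2, against 1466 and 1445 CPM with CEY4 (0.51 ± 0.03), the opposite order from the yolk protein messages. The remaining lower genes were par-5, which encodes a 14-3-3 protein (−1.06 ± 0.04), the non-muscle myosin gene nmy-2 (−0.52 ± 0.03) and mex-6 (−0.27 ± 0.03), whose relative mex-5 was higher (0.33 ± 0.03). In MYC libraries the list's median was −0.26, and 17 of its 35 higher genes were called lower there and 1 higher. The FLAG difference exceeded the MYC difference for 38 of 41 genes and was below it for 2 (edgeR interaction contrast), beside 32.3% above and 14.7% below over all genes. Under the 3 other scalings the FLAG difference was above for 35 to 37 of 41.

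Germline genes outside the oocyte list were called in both directions. Of 50 genes for germline RNA-binding and P-granule proteins, 22 were higher (44%) and 22 lower (44%) with CEY2, beside 37.6% and 36.5% of all genes, and the median was 0.01. With total-count scaling 27 were higher and 17 lower (median 0.168, against 0.163 over all genes). At least 2-fold, 2 were higher and 2 lower. The P-granule genes pgl-1 (936 and 951 CPM with CEY2, against 639 and 627 with CEY4, 0.58 ± 0.03) and glh-1, a Vasa-family helicase gene (0.53 ± 0.03), were higher. So were the Argonaute genes prg-1 (0.49 ± 0.03) and wago-1 (0.78 ± 0.03), while the Argonaute gene csr-1 was lower (−0.81 ± 0.03). The mRNAs of the RNA-binding proteins CAR-1 (1.21 ± 0.03) and PUF-3 (1.00 ± 0.04) were higher, and those of the DEAD-box helicase CGH-1 (−1.04 ± 0.03), DAZ-1 (−0.88 ± 0.03), LARP-1 (−0.56 ± 0.03), FBF-1 (−0.80 ± 0.07) and GLD-1 (−0.23 ± 0.03) were lower.

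Meiosis genes were more often lower, 20 of 35 tested against 12 higher, with a median of −0.19 (−0.03 with total-count scaling, where the counts were 16 lower and 15 higher). With TMM that was 57.1% lower and 34.3% higher, beside 36.5% and 37.6% of all genes. The synaptonemal complex gene syp-1 (−0.59 ± 0.05), the cohesin gene him-1 (−0.60 ± 0.03) and the chromosome pairing gene zim-2 (−1.12 ± 0.06) were lower. The double-strand break genes spo-11 (0.38 ± 0.05) and dsb-1 (1.07 ± 0.05) were higher, as was lab-1, with 49.7 and 49.9 CPM with CEY2, against 13.1 and 15 CPM with CEY4 (1.82 ± 0.07). LAB-1 protects cohesion between sister chromatids in meiosis.

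Cell division genes were higher more often than lower, 42 of 67 against 21, with a median of 0.18. That was 62.7% higher and 31.3% lower, beside 37.6% and 36.5% of all genes. The survivin-like gene bir-1 (1.83 ± 0.09) and csc-1 (1.31 ± 0.06), which act with the Aurora B kinase, were higher, and the kinase gene air-2 itself was higher by less (0.19 ± 0.05). The B-type cyclin gene cyb-3 had 547 and 558 CPM with CEY2, against 210 CPM in each CEY4 library (1.39 ± 0.03, edgeR adjusted p = 7.31e-32). The spindle checkpoint gene bub-3 (1.57 ± 0.05), the helicase subunit gene mcm-4 (1.3 ± 0.03) and the PCNA gene pcn-1 (1.25 ± 0.05) were also higher. Among the 21 lower genes were emb-30 (−1.27 ± 0.04), emb-27 (−0.80 ± 0.05) and mat-3 (−0.58 ± 0.05), each of which encodes a subunit of the anaphase-promoting complex.

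Sperm messages, present at low levels, were lower with CEY2. Of 40 sperm genes in the table, 25 were tested, 18 were lower, 16 of them at least 2-fold, and 2 were higher. Over all genes, 36.5% were lower and 37.6% higher. The ferlin gene fer-1, needed for membrane fusion in developing sperm, had 17.4 and 17.8 CPM with CEY2, against 43.1 and 46 CPM with CEY4 (−1.34 ± 0.06), and spe-11, a sperm-supplied factor of the early embryo, had 2.88 and 2.59 CPM, against 10.9 and 10.2 CPM (−1.95 ± 0.12). In MYC libraries 13 of the 25 were lower in CEY2, beside 26% of all genes tested there.

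**Figure D3:**
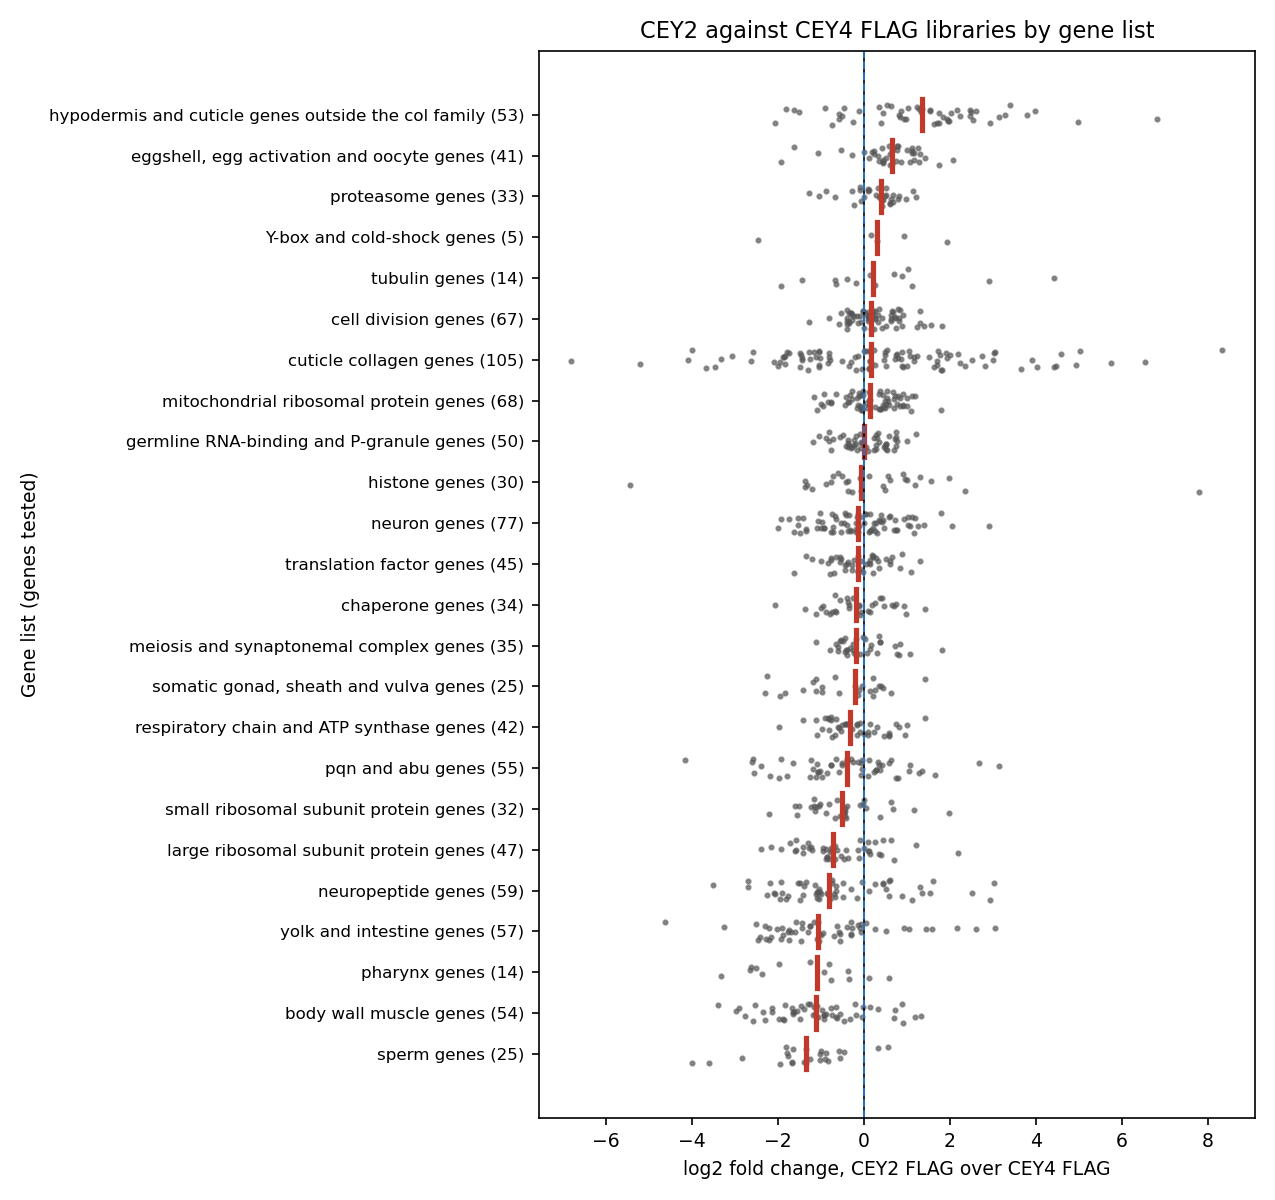
Log2 fold change of CEY2 over CEY4 in the FLAG libraries (horizontal axis) for every tested gene of each list with at least 5 tested genes; points are genes, red bars are list medians and the dashed line is the median of all genes at 0.005. Medians run from 1.35 for hypodermis and cuticle genes outside the col family down to −1.34 for sperm genes, and every list holds genes on both sides of 0.

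Messages of the translation machinery were mostly lower with CEY2. Of 47 large ribosomal subunit protein genes, 31 were lower and 10 higher (median −0.71), and of 32 small subunit genes, 24 were lower and 5 higher (median −0.51). The shares over all genes were 36.5% lower and 37.6% higher. The rps-6 mRNA stood at 440 and 442 CPM with CEY2, against 1998 and 2051 CPM with CEY4 (4.59-fold lower, −2.2 ± 0.03, edgeR adjusted p = 4.96e-40). Those of rpl-2 (−2.39 ± 0.05) and rpl-3 (−1.70 ± 0.03) were lower too, and rps-0 had 500 and 499 CPM with CEY2, against 1409 and 1436 CPM with CEY4. In CEY1 FLAG libraries rps-0 averaged 8791 CPM and rps-6 3487 CPM, above both other strains.

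The ribosomal protein genes did not move together. The rpl-39 mRNA had 19.7 and 19.1 CPM with CEY2, against 4.46 and 4 CPM with CEY4 (2.19 ± 0.10), and rps-21 had 11.6 and 11.9 CPM, against 2.96 and 3.03 CPM (1.97 ± 0.12). Also higher were rpl-30 (1.21 ± 0.06) and rps-22 (1.17 ± 0.07). Both rpl-39 and rps-21 were higher by like amounts in the CEY2 MYC libraries (2.04 ± 0.08 and 1.96 ± 0.105). The lists' medians in MYC were 0.19 (large) and 0.25 (small). The large subunit list took 0.634 and 0.668% of counts in CEY2 FLAG libraries, against 1.12 and 1.14% in CEY4 FLAG libraries.

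Translation factor genes were lower for 23 of 45 and higher for 16 (median −0.13), an order that was level at 19 and 19 with total-count scaling (median 0.03). With TMM that was 51.1% lower and 35.6% higher, beside 36.5% and 37.6% of all genes. The most abundant of them were lower. The poly(A)-binding protein mRNA pab-1 stood at 2147 and 2217 CPM with CEY2, against 5507 and 5619 CPM with CEY4 (−1.35 ± 0.03, edgeR adjusted p = 7.27e-34). The elongation factor genes eef-1A.1 (−1.2 ± 0.03), eef-1A.2 (−1.62 ± 0.04) and eef-2 (−0.54 ± 0.03) and the scaffold gene ifg-1 (−0.68 ± 0.03) were lower, though reads of the 2 near-identical eef-1A genes may have been split. The initiation factor genes eif-6 (1.31 ± 0.09) and eif-1.A (0.85 ± 0.04) were higher.

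Other housekeeping complexes differed in direction, and some of their shares lay near those over all genes, 37.6% higher and 36.5% lower. Proteasome genes were higher for 20 of 33 and lower for 7 (median 0.41), with pbs-7 (1.21 ± 0.09) and rpn-5 (0.68 ± 0.03) among the higher and rpt-5 (−1.27 ± 0.04) and rpn-3 (−1.05 ± 0.04) among the lower. Mitochondrial ribosomal protein genes were higher for 30 of 68 (44.1%) and lower for 16 (23.5%), with a median of 0.14. Respiratory chain and ATP synthase genes were lower for 24 of 42 (57.1%) and higher for 14 (33.3%), with a median of −0.32. The adenine nucleotide carrier gene ant-1.1 had 736 and 793 CPM with CEY2, against 1281 and 1293 CPM with CEY4 (−0.75 ± 0.03). Chaperone genes were lower for 18 of 34 (52.9%) and higher for 11 (32.4%), with a median of −0.18. Among them the endoplasmic reticulum chaperones hsp-3 (−1.37 ± 0.03), enpl-1 (−0.95 ± 0.03) and crt-1 (−0.78 ± 0.03) were lower, and the small heat shock protein gene sip-1 was higher, at 2438 and 2571 CPM with CEY2, against 913 and 947 CPM with CEY4 (1.43 ± 0.03, edgeR adjusted p = 1.52e-33).

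Most cuticle and molting genes were higher with CEY2, by more in the MYC libraries, but the summed FLAG share of their list was not. Of 53 hypodermis and cuticle genes outside the col family that were tested (59 in the table), 40 were higher with CEY2, 31 of them at least 2-fold, and 10 were lower, with a median of 1.35. Over all genes, 37.6% were higher and 36.5% lower. The list's median in MYC was 2.91, and 38 of the 40 were called higher there too. Of all 53 genes, 45 were higher in MYC and 2 lower, beside 27.4% and 26% of all genes tested there. As a whole the list took 0.256 and 0.262% of counts in CEY2 FLAG libraries, against 0.264% in each CEY4 FLAG library, and 0.953 and 1% in CEY2 MYC libraries, against 0.407 and 0.406% in CEY4 MYC libraries. That share includes 2 basement membrane collagen genes that were lower in FLAG. For let-2 the levels were 72 and 79.9 CPM with CEY2, against 318 and 315 CPM with CEY4. For emb-9 they were 42.3 and 43.7 CPM, against 152 and 150 CPM. The share of the list without these genes was not computed. The molting gene mlt-11 had 115 and 111 CPM with CEY2, against 18.8 and 19.8 CPM with CEY4 (5.84-fold higher, 2.55 ± 0.06, edgeR adjusted p = 4.99e-33), and its difference in MYC was 3.84 ± 0.11. The cuticle collagen genes rol-8 (12.9 and 13.5 CPM with CEY2, against 1.64 and 1.32 CPM with CEY4, 3.15 ± 0.14) and lon-3 (11.7 CPM in each CEY2 library, against 0.852 and 0.835 CPM, 3.79 ± 0.16) differed by 4.36 and 4.50 in MYC. The libraries of the 2 strains did not overlap for these 3 genes in FLAG, which for rol-8 and lon-3 was a condition of the ranking that named them.

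Set against the MYC difference, the cuticle genes had the opposite order. The FLAG difference was below the MYC difference for 34 of 59 of them and above it for 4 (edgeR interaction contrast), beside 14.7% below and 32.3% above over all genes. Under the other scalings the counts were 37 to 40 below and 4 above. The cuticle collagen genes rol-6 (2.23 ± 0.13), dpy-13 (1.74 ± 0.06) and sqt-3 (2.48 ± 0.11) were among the higher genes in FLAG. The adult-specific collagen gene col-19 of the col family had 120 and 128 CPM with CEY2, against 351 and 345 CPM with CEY4 (−1.49 ± 0.04). The basement membrane collagen genes let-2 (−2.06 ± 0.04) and emb-9 (−1.81 ± 0.05), which muscle makes, were lower with CEY2, with MYC differences of −0.18 and −0.07.

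The col family spread in both directions. Of its 156 genes in the table, 105 were tested. Of these, 49 were higher (46.7%) and 41 lower (39%) with CEY2, not far from 37.6% and 36.5% of all genes. At least 2-fold, 37 were higher and 34 lower, beside 14.1% and 17.6% of all genes. Of the 49 higher genes, 48 were also higher in MYC. Of the 41 lower genes, 15 were higher and 13 lower in MYC. The most abundant of the col genes named were lower, col-81 with 41.9 and 41.1 CPM with CEY2, against 660 and 665 CPM with CEY4 (16-fold, −4.0 ± 0.04, edgeR adjusted p = 1.33e-44), and col-129 with 64.4 and 65.6 CPM, against 710 and 728 CPM (−3.47 ± 0.04). In the opposite direction, col-41 had 48.9 and 50.2 CPM with CEY2, against 2.69 and 1.91 CPM with CEY4 (4.42 ± 0.10). The genes col-37 and col-50 had no count in either CEY4 library. As a family the collagens took 0.23 and 0.241% of counts in CEY2 FLAG libraries, against 0.607 and 0.609% in CEY4 FLAG libraries. Reads of near-identical collagens may have been split between genes.

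**Figure D4:**
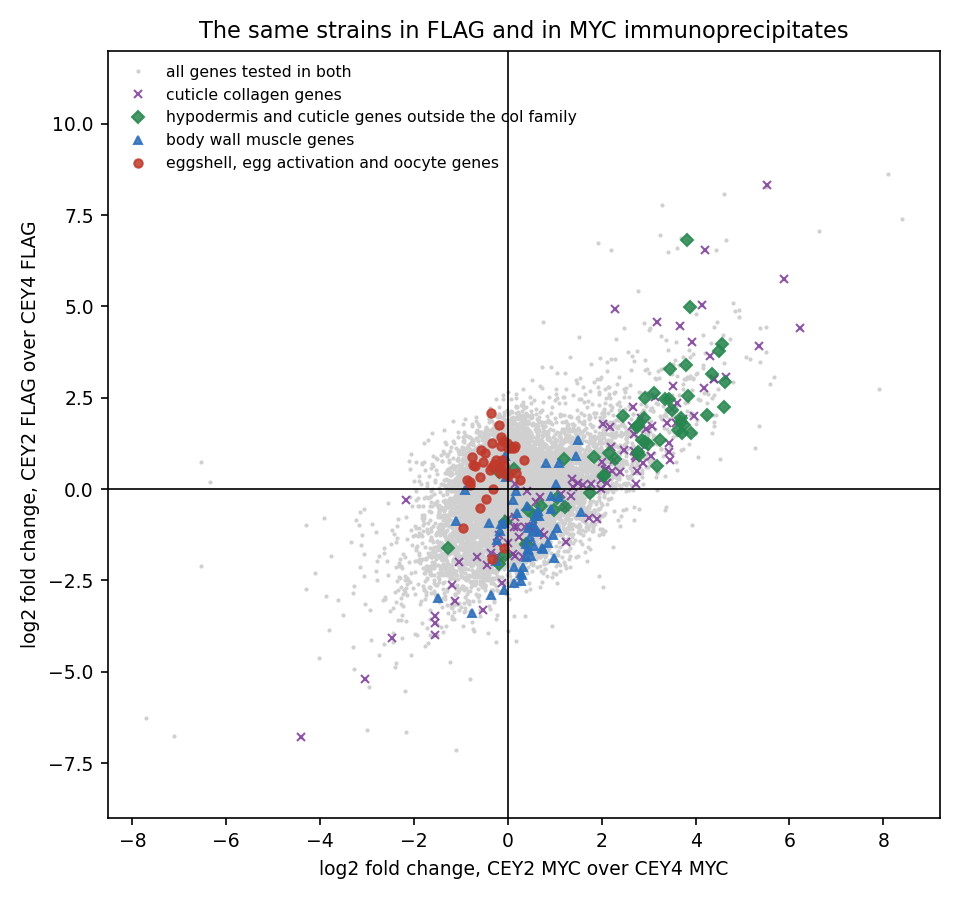
Log2 fold change of CEY2 over CEY4 in FLAG libraries (vertical axis) against the same in MYC libraries (horizontal axis) for genes tested in both; small grey points are all genes and coloured symbols are 4 gene lists. Cuticle genes outside the col family lie mostly to the upper right (medians 1.35 in FLAG and 2.91 in MYC). Cuticle collagen genes of the col family spread to both sides of 0 in FLAG (median 0.17, and 1.99 in MYC). Body wall muscle genes lie mostly below 0 in FLAG (median −1.11) and above 0 in MYC (0.42), and eggshell and oocyte genes mostly above 0 in FLAG (0.65) and below 0 in MYC (−0.26).

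Nervous system genes were mostly present at low levels (list median 1.79 CPM with CEY2 and 2.03 CPM with CEY4) and divided. Of 77 neuron genes tested (99 in the table), 33 were lower and 20 higher with CEY2, and the median of −0.13 became 0.03 with total-count scaling, where 26 were lower and 25 higher. With TMM that was 42.9% lower and 26% higher, beside 36.5% and 37.6% of all genes. In MYC, 48 of 74 were higher in CEY2 and 2 lower (median 1.00), beside 27.4% and 26% of all genes. Of the 33 genes lower in FLAG, 21 were called higher and 1 lower in MYC. Exceptions to the low levels were unc-44 and tdc-1. The ankyrin gene unc-44 had 425 and 419 CPM with CEY2, against 876 and 900 CPM with CEY4 (−1.07 ± 0.03), and the synaptic vesicle kinesin gene unc-104 had 16.3 and 16.6 CPM, against 65 and 66.3 CPM (−2.0 ± 0.06). The neuropeptide processing genes egl-3 (−1.08 ± 0.06) and egl-21 (−1.47 ± 0.08) were also lower, whereas the synaptobrevin gene snb-1 was higher (2.06 ± 0.10). The tyrosine decarboxylase gene tdc-1, used in certain neurons and in gonadal sheath cells, had 571 and 589 CPM with CEY2, against 260 and 255 CPM with CEY4 (1.17 ± 0.03). Of 59 neuropeptide genes tested (100 in the table), 31 were lower and 10 higher (median −0.81, 1.14 in MYC), and they were present at low levels, such as flp-6 at 2.76 and 2.7 CPM with CEY2, against 10.9 and 10.2 CPM with CEY4.

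Of 25 somatic gonad, sheath and vulva genes tested, 13 were lower (52%) and 6 higher (24%), with a median of −0.20. Over all genes, 36.5% were lower and 37.6% higher. The inositol trisphosphate receptor gene itr-1 had 55 and 58 CPM with CEY2, against 265 and 269 CPM with CEY4 (−2.24 ± 0.04), and the phospholipase C gene plc-1 (−1.95 ± 0.06) and the troponin T gene tnt-2 (−2.28 ± 0.04), which also stands in the muscle list, were lower as well. Of 55 pqn and abu genes, named for glutamine-rich proteins and for a stress response, 29 were lower (52.7%) and 15 higher (27.3%), with a median of −0.39. The histone genes, of which 30 of 80 were tested, numbered 13 higher and 13 lower, 43.3% each and not far from the shares over all genes. The replication-independent variant genes his-72 (1.98 ± 0.07) and htz-1 (1.31 ± 0.05) were higher. Tubulin genes were higher for 8 of 14 (57.1%) and lower for 5 (35.7%), with tbg-1, which encodes gamma-tubulin, higher (1.13 ± 0.05) and tba-2 lower (−0.40 ± 0.03). Of 30 major sperm protein genes, 1 passed the filter on low counts.

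By size of change alone, the mRNAs that stood highest with CEY2 were also higher in the MYC libraries of that strain. Leaving the col genes, histones and major sperm proteins aside, the 8 largest increases at 10 CPM or more were pud-4, irg-4, lon-3, cah-4, rol-8, dao-3, asm-3 and pan-1, with log2 fold changes of 3.02 to 5.09. The pud-4 mRNA had 13.4 and 11.6 CPM with CEY2, against 0.341 and 0.382 CPM with CEY4 (5.09 ± 0.21), and its MYC difference was 4.81. The carbonic anhydrase gene cah-4 averaged 101 ± 14.8 CPM with CEY2, against 11.1 ± 1.52 CPM with CEY4 (SD, n = 2 libraries each; log2 fold change 3.18 ± 0.08), with 1.04 in MYC. For the other 6 the MYC difference lay between 1.91 (pan-1) and 5.50 (irg-4), called in each case.

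The 8 largest decreases were lys-4, pqn-31, cylc-1, epic-1, epic-2, tnt-3, pmt-2 and vit-3, with log2 fold changes of −3.24 to −4.62. The epic-2 mRNA had 72.9 and 73.8 CPM with CEY2, against 959 and 919 CPM with CEY4 (12.8-fold lower, −3.68 ± 0.04, edgeR adjusted p = 2.76e-44), with −1.82 in MYC. The mRNA of the phosphoethanolamine methyltransferase PMT-2 had 46.1 and 46.6 CPM with CEY2, against 474 and 487 CPM with CEY4 (−3.37 ± 0.04), with −1.14 in MYC. The lysozyme gene lys-4 was lower in FLAG (−4.62 ± 0.17) and in MYC (−4.03), whereas pqn-31 was lower in FLAG (−4.15 ± 0.14) and not called in MYC (0.18, edgeR adjusted p = 0.657).

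By difference in level, the 5 mRNAs that gained the most CPM with CEY2 at 2-fold or more were sip-1, chs-1, cey-2, unc-71 and hmr-1. The unc-71 mRNA, which encodes an ADAM-family protein, stood at 1206 and 1190 CPM with CEY2, against 477 and 461 CPM with CEY4 (1.35 ± 0.03). The cadherin mRNA hmr-1 stood at 1181 and 1172 CPM with CEY2, against 450 and 461 CPM with CEY4 (1.37 ± 0.03). Their MYC differences were 0.17 and 0.24. The 5 that lost the most were vit-6, vit-2, vit-1, pab-1 and unc-54.

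**Figure D5:**
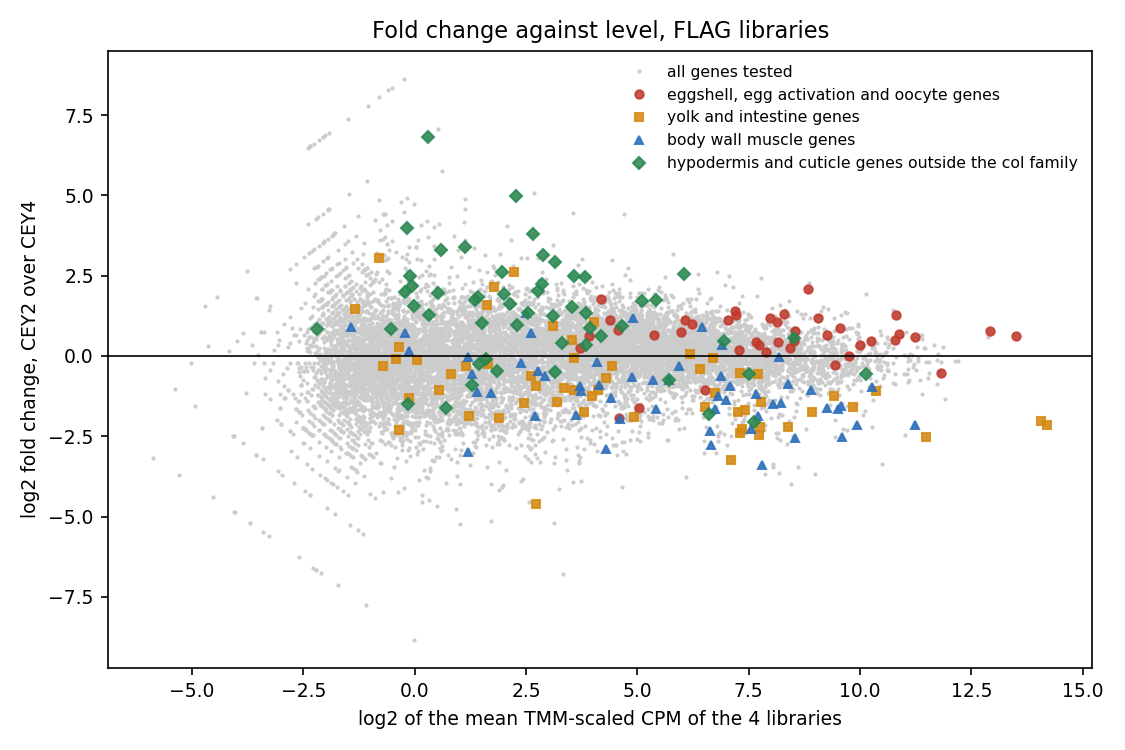
Log2 fold change of CEY2 over CEY4 in FLAG libraries (vertical axis) against the log2 of the mean TMM-scaled CPM over the 4 libraries (horizontal axis); grey points are all tested genes and coloured symbols are 4 gene lists. At the right end the vitellogenins vit-6 and vit-2 lie near −2 while the eggshell and oocyte genes of high level lie mostly above 0, and the cuticle genes with large increases lie at low levels.

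Across all genes the FLAG and MYC differences between the strains, which share no library, had a Pearson r of 0.496 and a Spearman rho of 0.331 over 11527 genes, which are not independent replicates. In MYC, 3446 of 12573 genes tested were higher (27.4%) and 3264 lower (26%) in CEY2 than in CEY4, 2176 (17.3%) and 823 (6.55%) of them at least 2-fold. Of the 1684 genes at least 2-fold higher with CEY2 in FLAG, 1635 were tested in MYC, and 50% were called higher and 8.62% lower there. Of the 2107 genes at least 2-fold lower in FLAG, 1958 were tested in MYC, and 35.6% were called lower and 14.3% higher. The median of the genes higher in FLAG was 1.42 in FLAG and 0.58 in MYC, and that of the lower genes −1.60 in FLAG and −0.39 in MYC.

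The FLAG difference exceeded the MYC difference for 4914 of 15194 genes (32.3%) and fell short of it for 2229 (14.7%) in the interaction contrast of edgeR over 12 libraries. This split depended on scaling, because the median over all genes was 0.286 in that fit, −0.05 with RLE size factors (the median-ratio scaling of DESeq2) and −0.15 when TMM factors were computed within each antibody, where the counts were 3501 and 3598. Differences of at least 2-fold numbered 2825 above (18.6%) and 1462 below (9.62%), an order that turned round to 1709 above and 2254 below with RLE size factors, 1786 and 2201 with total-count scaling, and 1447 and 2546 with TMM factors within each antibody. Yolk and intestine genes were below the MYC difference for 41 of 59 (48 with factors within each antibody). Cell division genes were above it for 63 of 67 (47 with factors within each antibody, where 3 were below it), and germline RNA-binding genes for 42 of 50 (32, where 7 were below it).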

How the data were processed

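RNA from FLAG and MYC IPs of whole young adult worms was sequenced from ScriptSeq v2 libraries, per the labels' protocols. The authors deposited raw counts per gene for 20182 genes in 12 libraries, and these whole-number counts were used as deposited. A second deposited table of normalized values was not used here. Which aligner, genome build, annotation, counter and strand setting produced them is not given in the sources used here. The handling of reads that match several near-identical genes is likewise not given. Of the gene identifiers, 18778 (93%) had a symbol in the name tables. No sequences are shown, as no genome of a named build was used.

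The analysis was run with edgeR 4.0.16 under R 4.3.3. The filterByExpr step kept genes by group at a minimum count of 10, libraries were scaled by TMM, and 1 mean per group was fitted with a quasi-likelihood model. The FLAG comparison used the 6 FLAG libraries (11985 genes), the MYC comparison the 6 MYC libraries (12573 genes), and the test of the FLAG difference minus the MYC difference all 12 (15194 genes). Tests were two-sided, with Benjamini-Hochberg adjustment over all tested genes. The SE of a log2 fold change was derived from the F statistic. The fits were tested on simulated data. Depth limits precision for genes of few counts, and since PCR copies were not marked by molecular identifiers, read numbers overstate independent molecules.

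The genes named were, in each direction, the 8 called genes with the largest log2 fold change and the 5 with the largest difference in CPM at 2-fold or more, among genes that averaged 10 CPM or more in the higher group, had more than 3 counts over the lower group and showed no overlap between the libraries of the strains. Histone, major sperm protein and col genes were left out of that ranking. All Y-box genes, genes of the transgene parts and up to 3 called genes of each of the other lists with the lowest adjusted p were added. Other genes of the lists were chosen as examples after their values were seen. The comparison and the 26 gene lists were chosen with earlier results of these data known. Alternatives were RLE size factors, total-count scaling, no filter, DESeq2 1.42.0, a replicate block, other sets of libraries, and leaving out each library. Same-numbered replicates did not deviate together (correlation of deviations from the group means −0.009 in FLAG and 0.012 in MYC), so the numbers were not taken to pair libraries.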

Additional observations from a re-analysis of the deposited data

Results flagged for a closer look

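For 48 of the 161 genes named, the CEY2 against CEY4 difference was called in opposite directions in FLAG and in MYC libraries, and the difference between these differences was itself called in the interaction contrast of edgeR. Of these 48 genes, 19 were higher with CEY2 in FLAG and lower in MYC, and 29 the reverse. The contrast uses the same libraries as the opposite calls, so its call adds no separate evidence. Some of the genes were named after their values were seen. Of all genes at least 2-fold higher in FLAG and tested in MYC, 8.62% were called lower there. Of those at least 2-fold lower, 14.3% were called higher. These shares hold for 2-fold calls, whereas the 48 genes were taken at adjusted p alone. Some of the 48 lay below 2-fold in FLAG, such as tbb-2 (0.14). The shares are therefore no like baseline for the 48, and the share of opposite calls over all genes at adjusted p alone was not computed. The values that follow are the FLAG difference minus the MYC difference on the log2 scale, taken from the fit over all 12 libraries. That fit had its own TMM scaling and a median of 0.286 over all genes. Its values therefore differ from a subtraction of the separate FLAG and MYC fits, whose values stand in parentheses. The FLAG difference minus the MYC difference was 2.77 ± 0.08 for cey-2 (SE; 1.93 in FLAG and −0.41 in MYC) and −2.3 ± 0.07 for cey-4 (−2.45 and 0.28), the mRNAs of the tagged proteins.

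Among germline genes it was 2.86 for oma-2, 2.08 for egg-1, 1.38 for cpg-2, 1.33 for rme-2, 1.21 for cbd-1 and 1.35 for mex-5 in the oocyte and eggshell list. It was 1.96 for puf-3, 1.47 for pgl-1, 1.37 for prg-1, 1.28 for glh-1 and −0.647 for daz-1 in the germline RNA-binding list, where daz-1 alone of these had the reverse order. For meiosis and cell division genes it was 2.65 for lab-1, 2.05 for spo-11, 2.0 for mcm-4 and 1.12 for air-2. Further positive values were 2.17 for rab-10, 1.86 for tdc-1, 1.12 for cey-3 and 0.778 for tbb-2.

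Among genes of somatic tissues it was −1.94 for vit-6, −1.8 for vit-2, −1.35 for vit-5 and −1.69 for fat-2 in the intestine list. For muscle and pharynx genes it was −2.36 for unc-15, −2.04 for unc-89, −1.91 for ttn-1, −1.88 for myo-3, −1.67 for act-4, −2.44 for lev-11, −2.12 for tnt-2, −2.24 for myo-1, −2.44 for myo-2 and −2.76 for tnt-4. For neuron and neuropeptide genes it was −1.63 for unc-44, −1.95 for egl-3, −1.92 for egl-21 and −2.4 for flp-6. For genes of translation it was −2.09 for rps-6, −1.86 for rpl-3, −1.3 for eef-1A.1, −1.79 for eef-1A.2, −0.501 for eef-2 and −1.05 for pab-1, and for other housekeeping genes −1.05 for ant-1.1, −1.28 for crt-1 and −1.19 for enpl-1. Each value kept its sign and its call under every alternative run, including the other scalings. Each group held 2 libraries, too few to single out a library within a group.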

How the results depend on the processing

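The FLAG comparison kept its counts within 1.5 times under every alternative run, although with total-count scaling the 2-fold calls turned to more higher (2150) than lower (1746). Leaving out each library gave 4121 to 4590 genes higher and 4080 to 4437 lower, and at 2-fold 1664 to 1766 and 2048 to 2163. The MYC comparison gave 2565 to 3509 higher and 2618 to 3556 lower, and at 2-fold 1664 to 2172 and 747 to 895. The FLAG difference minus the MYC difference gave 4700 to 5050 and 1920 to 2288, and at 2-fold 2736 to 2961 and 1308 to 1504. Where 1 library of a group was left, it was assumed to vary like the other groups.

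With replicate number as a block, the FLAG comparison gave 4465 genes higher and 4343 lower (1680 and 2097 at 2-fold), and no call of a gene named in the report changed.

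Scaling moved the FLAG difference minus the MYC difference most. Its 2-fold counts above and below were 1709 and 2254 with RLE size factors, 1786 and 2201 with total-count scaling, and 1447 and 2546 with TMM factors within each antibody, an alternative added after seeing the data, under which 3598 genes were below in all. These scalings also shift the median of all genes. DESeq2, which differs in its test as well as its scaling, gave 1602 above and 1977 below. With total-count scaling the median of histone genes in FLAG became 0.09 (−0.07 with TMM), and those of the neuron and translation factor genes also changed sign, to 0.03 each. Depth limits the genes below 1 CPM in both strains, of which 2429 were tested.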

Other observations

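Gene families taken by symbol after their values were seen showed further differences between the CEY2 and CEY4 FLAG libraries, beside 37.6% of all tested genes higher and 36.5% lower. All 17 rab genes tested, which encode small GTPases of membrane traffic, were called higher with CEY2, 7 of them at least 2-fold, with a median log2 fold change of 0.86, against −0.05 in MYC. The weakest of these calls was rab-3 (1.08, edgeR adjusted p = 0.0286), which was lost with DESeq2 (adjusted p = 0.181), in the fit over all 12 libraries (edgeR adjusted p = 0.0592), without CEY2 FLAG replicate 2 (0.132) and without CEY4 FLAG replicate 1 (0.237). The rab-10 mRNA had 118 and 113 CPM with CEY2, against 42.1 and 42.2 CPM with CEY4 (1.45 ± 0.05), rab-1 had 30.2 and 31.1 CPM, against 11.5 and 13.2 CPM (1.31 ± 0.07), and rab-5 had 51.1 and 51.7 CPM, against 25.7 and 25.3 CPM (1.01 ± 0.06). The libraries did not overlap for these 3 genes, with CEY2 above CEY4 as for 43.8% of all genes tested. The late endosome gene rab-7 (0.87 ± 0.07) and the recycling endosome gene rab-11.1 (0.63 ± 0.05) were also among the 17 higher genes.

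Other families had more genes lower than higher. Of 19 nep genes, which encode neprilysin-like peptidases, 13 were lower with CEY2, 12 of them at least 2-fold (median −1.57, and −0.19 in MYC). Most of the 13 lay near the floor in both strains, such as nep-10 at 0.127 and 0.191 CPM with CEY2, against 1.6 and 1.56 CPM with CEY4. The most abundant, nep-17, had 175 and 179 CPM, against 422 and 428 CPM. Of 10 asp genes for aspartyl proteases, 8 were lower (median −1.25, and 0.42 in MYC). The nas genes, which encode astacin-like metalloproteases, were lower for 8 of 20 and higher for 6 (median −0.39, and 1.04 in MYC). These counts were close to the shares over all genes, 36.5% lower and 37.6% higher. Of 22 flp neuropeptide genes tested, 16 were lower and the median was −1.08, against 1.2 in MYC.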
